A study of Mus musculus with 12 samples.

Results

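Cells in an epithelium are held to each other by tight junctions, adherens junctions, desmosomes and gap junctions. The genes described here are the claudins (Cldn), the numbered cadherins (Cdh), the connexins (Gja, Gjb and Gjc), Ocln, the Tjp genes, the desmocollins and desmogleins (Dsc and Dsg), Dsp and Jup. The families were chosen with earlier results of these data known, and the members within them by symbol. Every gene that the array's platform table names with a single symbol of 1 of these families was taken, which gave 59 of the 17097 symbols on the array. Of these, 37 passed a filter on low signals and were tested, and 22 did not.

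Claudins form the strands of the tight junction, which seal the space between cells or let selected ions and water through, while occludin (Ocln) lies beside them and the Tjp proteins tie the strands to the actin cytoskeleton. Classical cadherins such as E-cadherin (Cdh1) join cells at adherens junctions, and desmosomal cadherins do so at desmosomes, where Dsp and Jup link them to keratin filaments. Connexins assemble into channels that pass small molecules between neighbouring cells. In the intestine the set of claudins in use changes along the crypt and with differentiation.

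The 12 Affymetrix mouse arrays came from colon adenoma cells of 3 mice, MKL347, MKL358 and MKL367. Cells of each mouse were sorted into 4 populations by Mex3a status, an RNA-binding protein, and Lgr5 status, a receptor that marks intestinal stem cells: Mex3a+ Lgr5+ (double positive), Mex3a+ Lgr5-, Mex3a- Lgr5+ and, as double negative cells, Mex3a- Lgr5-. Each population has 3 arrays, 1 per mouse, and per the labels each replicate pools several adenomas of a mouse. All 3 mice carry the genotype ki/+, whose meaning the labels do not give; the sources used here do not state age, treatment or the model that gave the adenomas. The labels state 500 sorted cells for MKL358 and 2000 for MKL347 and MKL367. Values are deposited log2 signals, and below each set of 3 values is given in the order MKL347, MKL358, MKL367.

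The mean log2 signal of Mex3a was 7.02 ± 0.25 (SD, n = 3) in Mex3a+ Lgr5+ cells and 6.91 ± 0.13 in Mex3a+ Lgr5- cells, against 6.44 ± 0.14 in Mex3a- Lgr5+ cells and 6.12 ± 0.32 in Mex3a- Lgr5- cells. That of Lgr5 was 8.38 ± 0.24, 7.29 ± 0.24, 8.02 ± 0.06 and 6.01 ± 0.41 in the same order. All 14 epithelial marker genes examined lay above the filter level of 4.40 on every array. By limma 9 of them were lower in Mex3a+ cells and 0 higher, beside 17.3% and 9.91% of all tested genes, and with the mouse as a block 9 were lower and 2 higher (Krt18 and St14); their mean level was 9.11 to 9.42 on the Mex3a+ arrays and 9.58 to 9.83 on the Mex3a- arrays. The mean level of 10 neutrophil genes stood 0.83 and 1.31 above their mean over all arrays on the Mex3a- Lgr5+ and Mex3a- Lgr5- arrays of MKL358. All 7 tested neutrophil genes had negative differences, of which limma called 0, and 3 with the block (S100a8, S100a9 and Mmp9). Of 9 tested genes of macrophages and other myeloid cells 2 were lower in Mex3a+ cells, Cd14 by -1.02 and Tyrobp by -0.84. The mean of 14 fibroblast and smooth muscle genes stood 0.73 above theirs on the Mex3a- Lgr5+ array of MKL367. Endothelial genes (13) had a mean level of 4.37 to 4.45 on the Mex3a+ arrays and 4.32 to 4.51 on the Mex3a- arrays, close to the filter level. The part of these marker levels in the results on the junction genes was not tested. All 13 members called below were also called without mouse MKL358, and without the Mex3a- Lgr5+ array of MKL367. These fits do not test the part of the marker levels either, since epithelial marker levels still differed by Mex3a status on the remaining arrays. In sorted bulk cells, fewer cells of a type and less RNA per cell cannot be told apart.

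The first comparison set the 6 Mex3a+ arrays against the 6 Mex3a- arrays, averaged over Lgr5 status. Of the 37 tested junction genes 9 were lower in Mex3a+ cells (Cldn15, Gjb2, Dsc2, Gja1, Cldn2, Cdh17, Cdh1, Cldn3 and Cldn7), 4 were higher (Cdh13, Cldn6, Cldn4 and Cldn13) and 24 did not pass. These calls are by limma at an adjusted p under 0.05 over all 12595 genes tested, in a fit that left out the mouse. Calls with the mouse as a block are given beside them below. Cldn6 and Cdh5 passed the filter only through Mex3a+ arrays, where they read higher, and without this pair 3 of 35 members were higher and 9 lower. With both, the calls are 35.1% of the tested members, beside 27.2% of all tested genes, so the share of changed junction genes was near that of the array as a whole. Split by direction, 17.3% of all tested genes were lower and 9.91% higher. The median log2 difference of the tested members was -0.02, and that of all genes was -0.01. By family, 3 claudins were higher (Cldn6 among them) and 4 lower of 13 tested, and 1 cadherin was higher and 2 lower of 11. Of the desmosomal genes 1 was lower of 5, 2 connexins were lower of 5, and none of the 3 tested genes Ocln, Tjp1 and Tjp3 passed. At an unadjusted limma p under 0.05 the count was 17 of the 37 members, beside 4835 of the 12595 genes, and 0 of the 3.

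All 13 called members had the same sign in 3 of 3 mice. For 6 of the 37 tested members (Cdh13, Cldn15, Cldn2, Cldn6, Cldn7 and Gjb2) the 6 Mex3a+ arrays did not overlap the 6 Mex3a- arrays, where Cldn6 is under the filter level on every Mex3a- array; among all tested genes 13.3% did not overlap. In the fit that left out the mouse, the number of calls depended on which mice were kept. Without MKL347 5 members passed (1 higher and 4 lower), against 9 without MKL367 and 15 without MKL358. A fit with the mouse as a block called 6 higher and 13 lower with all mice (4 and 13 without Cldn6 and Cdh5), beside 41.2% of all genes. In that fit 13 members passed without MKL347, of which 12 were among the 13 above.

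**Figure D1:**
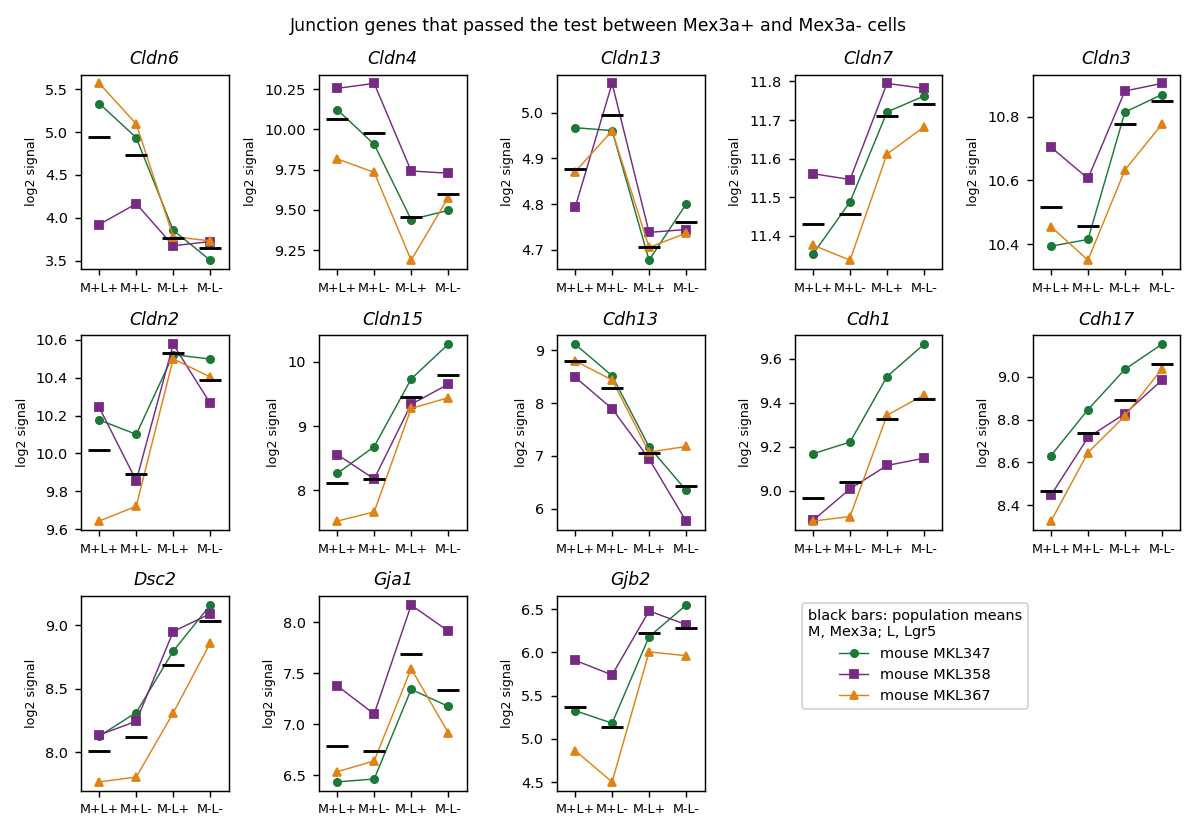
Deposited log2 signal (vertical axes, each panel on its own scale) of the 13 junction genes called between Mex3a+ and Mex3a- cells, in the 4 sorted populations (horizontal axes; M, Mex3a; L, Lgr5). Points are single arrays, lines join the arrays of a mouse, and black bars are means of 3 arrays; Cldn6, Cldn4, Cldn13 and Cdh13 are higher on the Mex3a+ side and the other 9 lower.

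The promoters of 5 called genes are shown: both rises that the RefSeq promoter table covers (Cldn6 and Cldn4), the 2 largest falls it covers (Cldn15 and Gjb2), and Cldn2, a fall whose window matched the CDX motif below. The table held 41 of the 59 members and 8 of the 13 called ones (Cdh1, Cdh13, Cdh17, Cldn13 and Dsc2 were not matched). Each run is the 250 bases before the annotated start in GRCm38.p6, 5′ to 3′ on the gene's strand. They are Cldn15 at chr5:136967619-136967868 (plus strand), Gjb2 at chr14:57104703-57104952 (minus strand), Cldn2 at chrX:139800558-139800807 (plus strand), Cldn6 at chr17:23679115-23679364 (plus strand) and Cldn4 at chr5:134946935-134947184 (minus strand). Capitals mark matches, on either strand, to CACCTG (an E-box form bound by Snail and Zeb factors, repressors of Cdh1), CTTTGA (the core of TCF and LEF sites) or TTTATG (a core of CDX sites). A match on the opposite strand appears as the reverse complement.
Cldn15: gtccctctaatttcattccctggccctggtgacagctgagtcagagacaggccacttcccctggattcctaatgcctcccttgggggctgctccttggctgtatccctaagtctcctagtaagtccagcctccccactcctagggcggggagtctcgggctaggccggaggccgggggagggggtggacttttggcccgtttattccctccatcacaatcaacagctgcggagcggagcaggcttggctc
Gjb2: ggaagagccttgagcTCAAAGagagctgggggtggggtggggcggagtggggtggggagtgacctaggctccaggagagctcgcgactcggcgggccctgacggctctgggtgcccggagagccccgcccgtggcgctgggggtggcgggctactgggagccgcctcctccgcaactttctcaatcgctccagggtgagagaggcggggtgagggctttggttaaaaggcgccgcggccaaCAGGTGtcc
Cldn2: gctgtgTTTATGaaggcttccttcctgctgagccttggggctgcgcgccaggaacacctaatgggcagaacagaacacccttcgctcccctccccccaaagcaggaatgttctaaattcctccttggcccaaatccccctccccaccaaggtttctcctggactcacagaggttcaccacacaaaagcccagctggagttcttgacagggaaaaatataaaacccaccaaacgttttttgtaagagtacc
Cldn6: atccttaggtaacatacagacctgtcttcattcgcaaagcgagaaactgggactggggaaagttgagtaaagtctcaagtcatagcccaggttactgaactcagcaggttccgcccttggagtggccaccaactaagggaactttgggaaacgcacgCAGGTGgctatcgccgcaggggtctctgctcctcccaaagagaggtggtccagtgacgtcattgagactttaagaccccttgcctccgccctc
Cldn4: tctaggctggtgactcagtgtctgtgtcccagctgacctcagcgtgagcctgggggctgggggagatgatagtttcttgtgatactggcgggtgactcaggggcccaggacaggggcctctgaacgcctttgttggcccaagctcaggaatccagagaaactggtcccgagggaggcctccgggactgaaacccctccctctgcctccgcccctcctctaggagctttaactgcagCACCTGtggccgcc
Counting bases back from the start, CACCTG began at -14 in Cldn4, at -93 in Cldn6 (opposite strand) and at -9 in Gjb2 (opposite strand). Gjb2 also held CTTTGA at -235 (opposite strand), Cldn2 held TTTATG at -244, and the Cldn15 window held none of the motifs. Nor did those of Cldn3, Cldn7 and Gja1, the called members with a promoter in the table that are not shown. Over the 41 member promoters 5 held CACCTG, 5 CTTTGA and 3 TTTATG, and no matches of different motifs overlapped. The same motifs were in 17.1%, 14% and 11.1% of the 27025 promoters of this length in the table. The matches are a description of these windows, and binding was not measured.

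Cldn15, a claudin that forms sodium-permeable pores in the intestine, had the largest fall of the 37 tested members. In Mex3a+ cells its log2 signals were 8.26, 8.56 and 7.52 with Lgr5 and 8.68, 8.18 and 7.66 without. In Mex3a- cells they were 9.73, 9.34 and 9.27 with Lgr5 and 10.27, 9.65 and 9.44 without. All 6 Mex3a+ arrays lay below all 6 Mex3a- arrays, with a gap of 0.59. The mean difference was -1.47 (SE 0.22, limma adjusted p = 0.000623), a 2.78-fold lower signal, and it was -1.53, -1.13 and -1.76 in the 3 mice.

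Cldn2, the claudin of cation- and water-permeable pores that is found in crypts, fell less. Its signals were 10.18, 10.24 and 9.64 in Mex3a+ Lgr5+ cells and 10.10, 9.86 and 9.72 in Mex3a+ Lgr5- cells. In the Mex3a- populations they were 10.52, 10.58 and 10.50 with Lgr5 and 10.50, 10.26 and 10.40 without. The groups did not overlap, though the highest Mex3a+ array lay only 0.02 under the lowest Mex3a- array. The Cldn2 difference was -0.50 (SE 0.10, limma adjusted p = 0.00365), and its other probe set gave -0.57.

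Cldn3 and Cldn7 are barrier-forming claudins of colonic epithelium, and both fell by small amounts. Cldn7 signals were 11.35, 11.56 and 11.38 in Mex3a+ Lgr5+ cells, 11.49, 11.55 and 11.34 in Mex3a+ Lgr5- cells, 11.72, 11.80 and 11.61 in Mex3a- Lgr5+ cells and 11.76, 11.78 and 11.68 in Mex3a- Lgr5- cells. Every Mex3a+ array was below every Mex3a- array, with a difference of -0.28 (SE 0.05, limma adjusted p = 0.00213). Cldn3 signals were 10.39, 10.70 and 10.46, then 10.42, 10.61 and 10.35 in the 2 Mex3a+ populations, and 10.81, 10.88 and 10.63, then 10.87, 10.90 and 10.78 in the 2 Mex3a- populations, Lgr5+ first. For Cldn3 the groups overlapped between mice, since the Mex3a+ Lgr5+ array of MKL358 (10.70) exceeded the Mex3a- Lgr5+ array of MKL367 (10.63), but within each mouse the Mex3a+ arrays were lower. The Cldn3 difference was -0.33 (SE 0.07, limma adjusted p = 0.00471), and -0.46 in its other probe set. Without mouse MKL347 neither passed, with adjusted p = 0.0743 for Cldn7 and 0.129 for Cldn3.

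Cldn4, another barrier-forming claudin, went the other way. It read 10.12, 10.26 and 9.82 in Mex3a+ Lgr5+ cells, 9.91, 10.29 and 9.73 in Mex3a+ Lgr5- cells, 9.44, 9.74 and 9.19 in Mex3a- Lgr5+ cells and 9.50, 9.73 and 9.58 in Mex3a- Lgr5- cells. The groups met at 1 point, where the lowest Mex3a+ array (MKL367) was 0.01 under the highest Mex3a- array (MKL358). The difference was 0.49 (SE 0.12, limma adjusted p = 0.00977), or 1.41-fold, and the adjusted p was 0.150 without MKL347.

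Cldn6, a claudin known from embryonic epithelia, read highest on Mex3a+ arrays. Its Mex3a+ signals were 5.33, 3.92 and 5.57 with Lgr5 and 4.93, 4.17 and 5.09 without. The Mex3a- signals were 3.86, 3.68 and 3.78 with Lgr5 and 3.51, 3.73 and 3.73 without, all under 4.40. Cldn6 thus passed the filter only through 4 Mex3a+ arrays, those of MKL347 and MKL367, and the arrays of MKL358 stayed under it in all 4 populations. Since a gene kept through the arrays where it is high had to differ, its call is given as a description. The measured difference was 1.12, with 1.45, 0.34 and 1.57 in the 3 mice. The mean of the Mex3a+ arrays was 1.35-fold above the filter level, which is no measure of an effect, since the filter kept Cldn6 through these arrays. Those of MKL358 lay under that level. Cldn6 was not called without MKL347 or without MKL367.

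Cldn13 was the smallest of the rises. Its signals were 4.97, 4.79 and 4.87, then 4.96, 5.06 and 4.96 in Mex3a+ cells, and 4.68, 4.74 and 4.71, then 4.80, 4.74 and 4.74 in Mex3a- cells, with Lgr5+ before Lgr5-. The ranges touched, at 4.79 in Mex3a+ and 4.80 in Mex3a- cells. The difference of 0.20 (SE 0.05, limma adjusted p = 0.0161) did not pass without MKL347 (adjusted p = 0.139) or MKL367 (0.178).

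Cldn13, Cldn4 and Cldn3 are neighbours on chromosome 5 in the RefSeq order of protein-coding genes, with Mettl27 between the first 2, and they did not move together: Cldn13 and Cldn4 were higher and Cldn3 lower in Mex3a+ cells. Cldn6 has Cldn9 as its direct neighbour on chromosome 17, and Cldn9 differed by -0.05 without passing the test. The other claudins tested were Cldn5, Cldn9, Cldn12, Cldn14, Cldn22 and Cldn23, with differences between -0.28 (Cldn23) and 0.07 (Cldn5), none of which passed. Cldn12 passed with the mouse as a block. It read 7.68, 7.38 and 7.86, then 7.70, 7.60 and 7.75 in Mex3a+ cells, and 8.07, 7.75 and 7.95, then 8.06, 7.56 and 8.07 in Mex3a- cells, Lgr5+ first. Those groups overlapped, but the mean was lower in Mex3a+ cells of each mouse, and the difference of -0.25 had a limma adjusted p of 0.129, and of 0.0106 with the block. The filter left out 7 claudins: Cldn1, Cldn8, Cldn10, Cldn11, Cldn16, Cldn18 and Cldn19. Cldn1 ranged only from 3.50 to 4.07 over the 12 arrays.

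The tight junction genes outside the claudin family showed no call. Ocln read 7.84, 7.77 and 7.88, then 7.93, 7.77 and 7.62 in Mex3a+ cells, and 7.85, 7.82 and 7.73, then 8.22, 7.64 and 7.67 in Mex3a- cells, Lgr5+ first. Its groups overlapped widely, and the difference was -0.02 with a 95% interval of -0.24 to 0.21. Tjp1, the scaffold protein ZO-1, read 7.83, 7.37 and 7.73, then 7.53, 7.52 and 7.68 in Mex3a+ cells, against 7.66, 7.17 and 7.60, then 7.66, 7.07 and 7.69 in Mex3a- cells. Its difference was 0.14, with an interval of -0.15 to 0.42. Tjp3, a related scaffold, read 8.16, 8.22 and 8.03, then 8.04, 8.18 and 7.88 in Mex3a+ cells, against 8.04, 8.41 and 8.14, then 8.35, 8.46 and 8.14 in Mex3a- cells. Tjp3 overlapped too, with a difference of -0.17 (limma adjusted p = 0.178), which passed with the mouse as a block (0.0277).

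**Figure D2:**
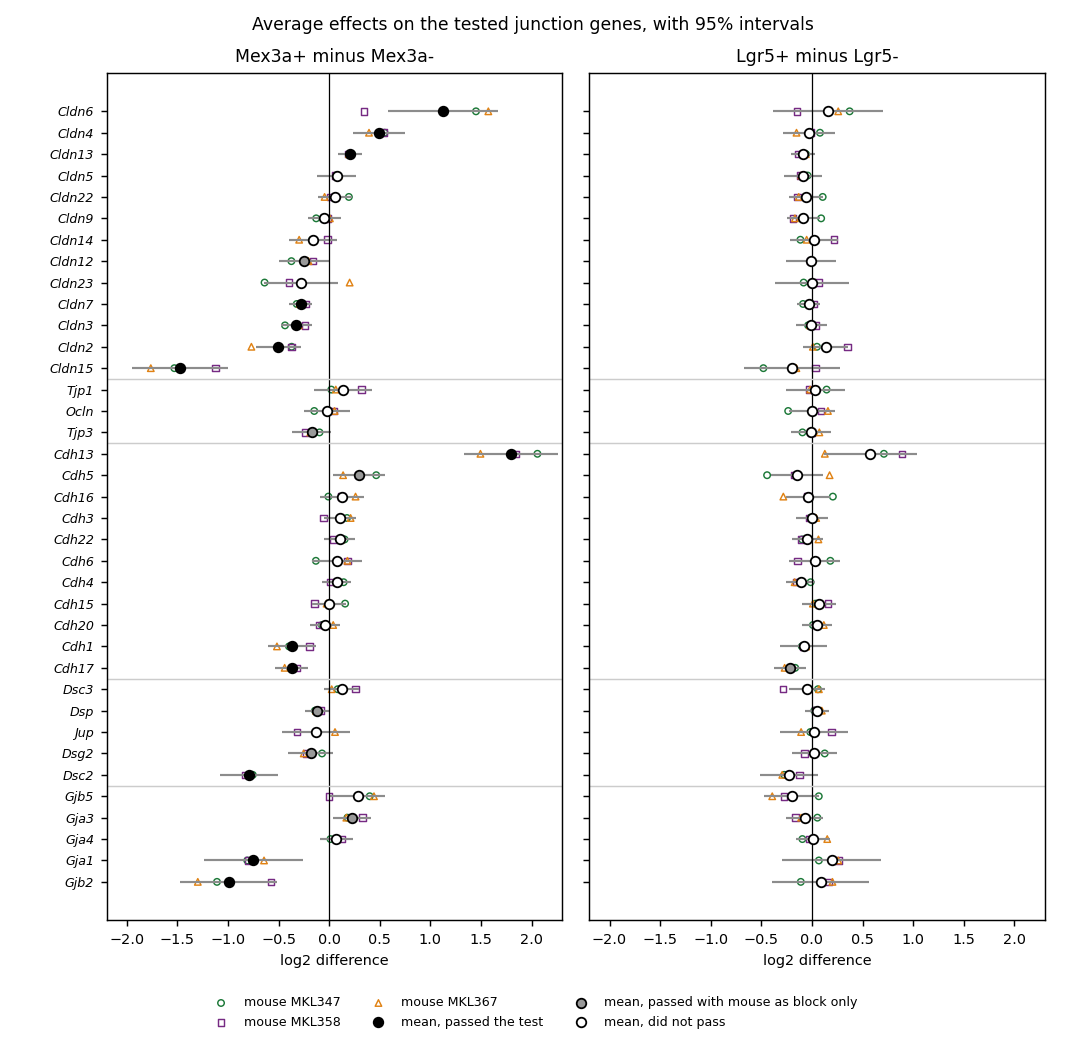
Log2 differences of the 37 tested junction genes between Mex3a+ and Mex3a- cells (left) and between Lgr5+ and Lgr5- cells (right), in families separated by grey lines. Large points are means over 3 mice, small open points single mice, and bars 95% intervals of limma's fit; Cdh13 (1.80) and Cldn15 (-1.47) lie farthest from 0 on the left, and no mean is filled black on the right.

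Cdh13, or T-cadherin, is a cadherin anchored to the membrane by a lipid, without the cytoplasmic tail through which classical cadherins bind catenins. It had the largest rise of the 37 members. Its log2 signals were 9.11, 8.49 and 8.80 in Mex3a+ Lgr5+ cells and 8.52, 7.89 and 8.44 in Mex3a+ Lgr5- cells. In Mex3a- cells they were 7.17, 6.94 and 7.07 with Lgr5 and 6.35, 5.76 and 7.18 without. Every Mex3a+ array lay above every Mex3a- array, with a gap of 0.72 between the groups. The difference was 1.80 (SE 0.21, limma adjusted p = 0.000187), or 3.48-fold, and 2.06, 1.84 and 1.49 in the 3 mice. A pair of further Cdh13 probe sets gave 1.18 and 1.22 and were called as well, and the fourth, dim on all arrays, gave 0.05.

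Cdh1 and Cdh17 fell modestly. Cdh1 read 9.17, 8.87 and 8.86, then 9.22, 9.01 and 8.88 in Mex3a+ cells, and 9.52, 9.12 and 9.34, then 9.67, 9.15 and 9.44 in Mex3a- cells, Lgr5+ first. The Mex3a+ arrays of MKL347 overlapped the Mex3a- arrays of MKL358, while within each mouse the Mex3a+ arrays were lower. The difference of -0.37 (SE 0.11, limma adjusted p = 0.0245) did not pass without MKL347 (adjusted p = 0.0726) or MKL367 (0.270), nor without any of 4 single arrays (0.0590 to 0.0641). Cdh17, an intestinal cadherin with a short cytoplasmic tail, read 8.63, 8.45 and 8.33, then 8.85, 8.72 and 8.65 in Mex3a+ cells. In Mex3a- cells it read 9.03, 8.83 and 8.82, then 9.15, 8.98 and 9.04, so that the groups overlapped by only 0.03. The Cdh17 difference was also -0.37 (SE 0.07, limma adjusted p = 0.00327; 0.0651 without MKL367).

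Cdh3 (P-cadherin), the direct neighbour of Cdh1 on chromosome 8, differed by 0.11 (interval -0.05 to 0.27) and did not pass. Neither did Cdh4, Cdh6, Cdh15, Cdh16, Cdh20 and Cdh22, whose differences lay between -0.04 and 0.12. Cdh5, the cadherin of endothelial cells, read 4.27, 4.30 and 4.62, then 5.02, 4.44 and 4.36 in Mex3a+ cells and 4.11, 3.98 and 4.40, then 4.25, 4.19 and 4.31 in Mex3a- cells. It passed the filter through 3 Mex3a+ arrays only and overlapped between the groups. Its difference of 0.30 was not called by limma (adjusted p = 0.0892), and its call with the mouse as a block is not read further, since the filter kept it through the arrays where it is high. Of the 13 endothelial genes 9 were tested, and beside Cdh5 0 of these were higher and 1 was lower in Mex3a+ cells. The filter left out 8 cadherins: Cdh2, Cdh7, Cdh8, Cdh9, Cdh10, Cdh11, Cdh23 and Cdh26. Cdh2 (N-cadherin) ranged from 3.38 to 3.65 over the 12 arrays.

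Dsc2, the desmocollin of simple epithelia, was the called desmosomal gene. It read 8.13, 8.14 and 7.77 in Mex3a+ Lgr5+ cells, 8.31, 8.24 and 7.81 in Mex3a+ Lgr5- cells, 8.80, 8.95 and 8.31 in Mex3a- Lgr5+ cells and 9.16, 9.09 and 8.86 in Mex3a- Lgr5- cells. The highest Mex3a+ array (MKL347) and the lowest Mex3a- array (MKL367) both read 8.31, and within each mouse the Mex3a+ arrays were lower by at least 0.54 at the same Lgr5 status. Dsc2 differed by -0.79 (SE 0.13, limma adjusted p = 0.00112), a 1.73-fold lower signal, with -0.76, -0.83 and -0.80 in the 3 mice and -0.88 in its other probe set. Of its direct neighbours, Dsc3 (mean signal 4.60) differed by 0.12 without passing, and Dsc1 (3.52 to 3.75) was under the filter. At signals this near to or under 4.40, whether they moved with Dsc2 cannot be told.

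Dsg2, the desmoglein that pairs with Dsc2, read 10.64, 10.25 and 10.14, then 10.37, 10.30 and 9.97 in Mex3a+ cells, and 10.57, 10.46 and 10.24, then 10.59, 10.56 and 10.37 in Mex3a- cells, Lgr5+ first. Its groups overlapped and the difference of -0.18 did not pass (limma adjusted p = 0.202; 0.00811 with the mouse as a block). All 6 Dsg2 probe sets gave negative differences, from -0.25 to -0.07, and none passed. Dsp, which binds keratin filaments, read 11.43, 11.29 and 11.32, then 11.37, 11.33 and 11.14 in Mex3a+ cells against 11.54, 11.45 and 11.37, then 11.55, 11.34 and 11.36 in Mex3a- cells. The difference of -0.12 (adjusted p = 0.136; 0.0118 with the block) came from the brightest probe set. The other 2 Dsp probe sets gave -0.38 (limma adjusted p over probe sets = 0.0125) and -0.61 (0.0449), so the probe sets of Dsp disagree on the call though not on the sign. Jup, or plakoglobin, read 8.39, 8.84 and 8.45, then 8.32, 8.54 and 8.28, against 8.43, 9.05 and 8.12, then 8.53, 8.96 and 8.50, and differed by -0.13 (interval -0.46 to 0.21).

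Gjb2 and Gja1 were the called connexins, and both fell. Gjb2 read 5.33, 5.91 and 4.87 in Mex3a+ Lgr5+ cells and 5.18, 5.74 and 4.50 in Mex3a+ Lgr5- cells. In Mex3a- cells it read 6.18, 6.48 and 6.01 with Lgr5 and 6.55, 6.32 and 5.96 without. The groups did not overlap, although the highest Mex3a+ array (MKL358) lay only 0.05 under the lowest Mex3a- array (MKL367). Gjb2 differed by -0.99 (SE 0.22, limma adjusted p = 0.00583), a 1.99-fold lower signal; the adjusted p was 0.121 without MKL347.

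Gja1, the most widely expressed connexin, read 6.44, 7.38 and 6.54, then 6.47, 7.10 and 6.64 in Mex3a+ cells, and 7.34, 8.17 and 7.55, then 7.18, 7.92 and 6.92 in Mex3a- cells, Lgr5+ first. MKL358 was highest in each population, so the groups overlapped across mice and not within them. The difference was -0.75 (SE 0.22, limma adjusted p = 0.0268), close to the threshold. It was 0.167 without MKL347, 0.129 without MKL367, 0.0566 after a further quantile normalization and 0.0517 to 0.0655 without any of 6 single arrays, but 9.95e-06 with the mouse as a block. The 4 other Gja1 probe sets gave -1.23, -0.94, -0.76 and -0.23, of which the last 2 were under the filter.

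Gja3 and Gjb2 are direct neighbours on chromosome 14. Gja3, known as a lens connexin, read 4.87, 5.11 and 4.95, then 4.98, 5.41 and 5.14 in Mex3a+ cells and 4.85, 4.92 and 4.86, then 4.64, 4.94 and 4.89 in Mex3a- cells. It was higher in the Mex3a+ cells of each mouse, with overlap across mice, and the difference of 0.23 (limma adjusted p = 0.0714) passed with the mouse as a block (0.0136). Gjb5 differed by 0.28 and Gja4 by 0.07, and neither passed in either fit. The filter left out 6 connexins: Gja5, Gja10, Gjb1, Gjb6, Gjc1 and Gjc3. Gjb1, a connexin best known from liver, ranged from 3.98 to 4.30 over the 12 arrays.

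**Figure D3:**
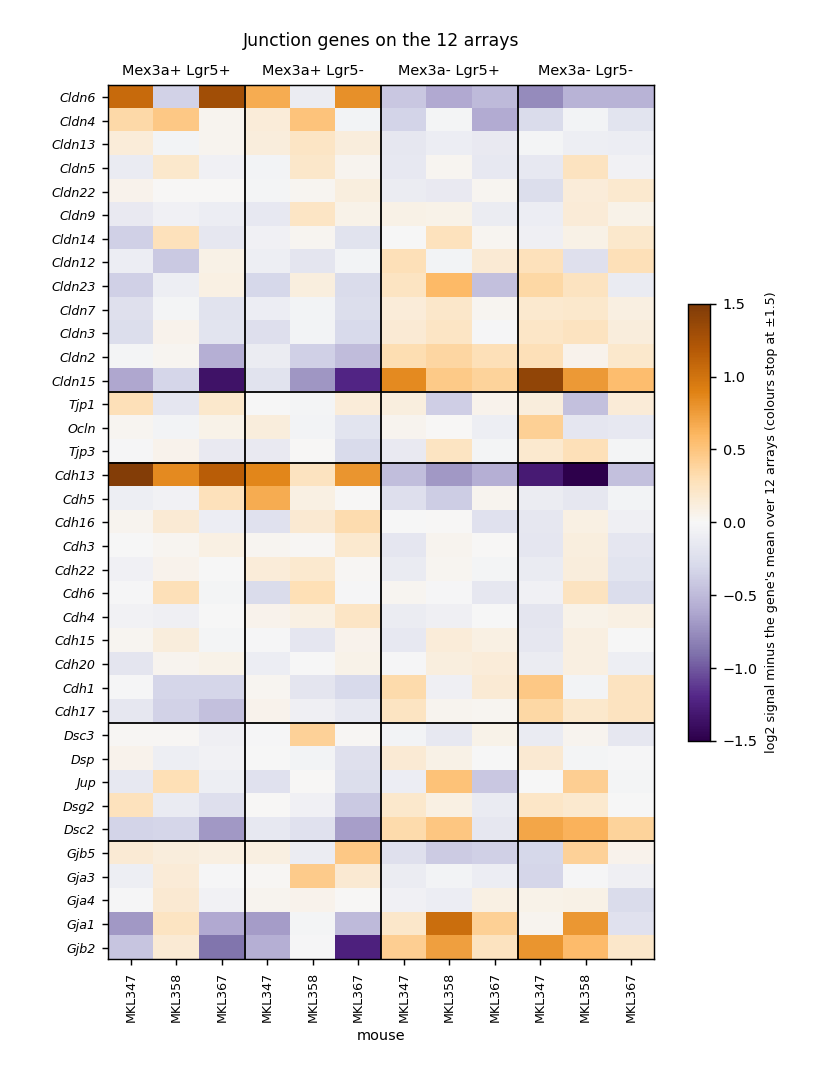
Log2 signal of the 37 tested junction genes on the 12 arrays, as the difference from each gene's mean over all arrays (colour scale stops at 1.5 on either side). Columns are arrays grouped by population, rows are genes grouped by family with black lines between families; Cdh13 and Cldn6 turn from brown to purple between the Mex3a+ and Mex3a- columns and Cldn15, Gjb2 and Dsc2 the other way.

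Asked separately at each Lgr5 status, the Mex3a comparison has 3 arrays against 3. In Lgr5+ cells 2 members were higher in Mex3a+ cells (Cdh13 and Cldn4) and 4 lower (Cldn15, Cldn7, Cdh17 and Dsc2), or 16.2% of 37 beside 8.01% of all genes (3.21% higher and 4.8% lower). In Lgr5- cells 1 was higher (Cdh13) and 6 were lower (Cldn15, Cldn2, Cldn3, Cldn7, Dsc2 and Gjb2), 18.9% beside 16.9% (5.15% higher and 11.7% lower). With the mouse as a block these counts rose to 3 higher and 9 lower in Lgr5+ cells, beside 22% of all genes, and to 5 higher and 12 lower in Lgr5- cells, beside 31.9%. Without MKL347 0 members passed in either, and 9 and 11 did with the block. With all mice, 14 of the 37 members had an unadjusted limma p under 0.05 in each. Of the 12595 genes, 2862 did in Lgr5+ cells and 3939 in Lgr5- cells. Without MKL367 the count was 2 in Lgr5+ cells and 3 in Lgr5- cells, and leaving out single arrays gave 1 to 9 and 3 to 8.

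The members with the largest average effects had differences of the same sign at both Lgr5 states. Cdh13 was higher by 1.74 (SE 0.30, limma adjusted p = 0.00833) in Lgr5+ cells and by 1.85 (SE 0.30, 0.00257) in Lgr5- cells. Cldn15 differed by -1.33 (SE 0.31, limma adjusted p = 0.0246) and -1.61 (SE 0.31, 0.00532). Dsc2 differed by -0.67 and -0.91, Gjb2 by -0.86 and -1.13, Gja1 by -0.90 and -0.60, and Cldn4 by 0.61 and 0.38, in Lgr5+ and Lgr5- cells. The interaction, which tests the difference between the 2 effects, was called for 0 members by limma, with or without the block. No member reached an unadjusted limma p of 0.05 for it either (lowest 0.160), while 359 of the 12595 genes did, and 0% of all genes were called. The interval of the interaction was wide: -1.03 to 0.81 for Cdh13, -0.67 to 1.23 for Cldn15 and -0.68 to 1.24 for Gjb2. With the mouse as a block it was -0.72 to 0.50, -0.22 to 0.77 and -0.22 to 0.78, so differences inside these bounds were not excluded.

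**Figure D4:**
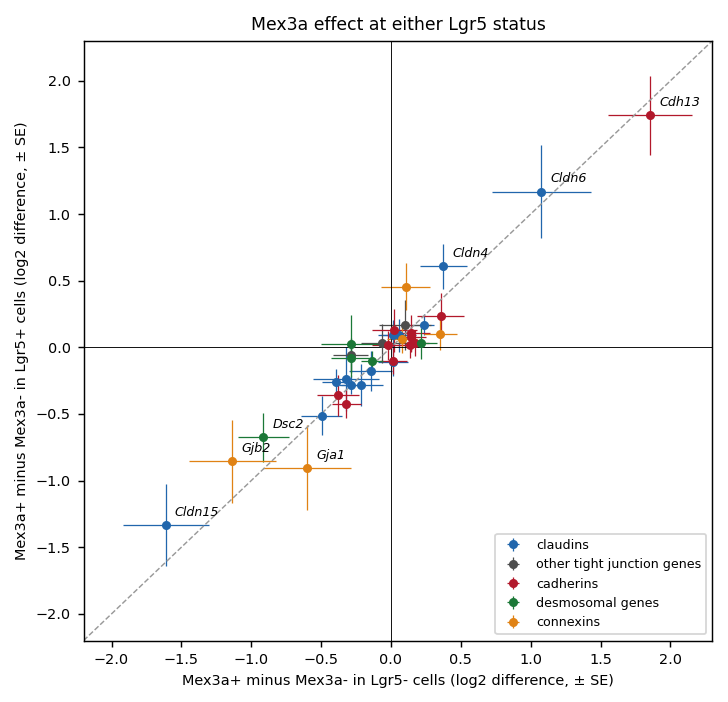
Mex3a effect (log2 difference, Mex3a+ minus Mex3a-) of the 37 tested junction genes in Lgr5- cells (horizontal axis) and Lgr5+ cells (vertical axis), coloured by family. Bars are 1 standard error of limma's fit on either side and the dashed line marks equal effects; Cdh13 lies at 1.85 and 1.74 and Cldn15 at -1.61 and -1.33.

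Lgr5 status was compared in the same way. Averaged over Mex3a status, limma called 0 of the 37 members between Lgr5+ and Lgr5- cells, and 0.0397% of all genes. At an unadjusted p under 0.05 the count was 2, Cdh17 and Cdh13, beside 783 of the 12595 genes. Cdh17 was lower in Lgr5+ cells of all 3 mice, by -0.22 (SE 0.07, adjusted p = 0.568), and passed with the mouse as a block (0.0369), where 1.8% of all genes were called and 0.627% were lower. Cdh13 was higher in Lgr5+ cells of all 3 mice, by 0.71, 0.89 and 0.13, with a mean of 0.58 (SE 0.21), and did not pass (adjusted p = 0.634; 0.0659 with the block). Within Mex3a+ cells and within Mex3a- cells 0 members were called for Lgr5 status, with or without the block. Of all genes 0% and 0.0318% were called in these 2 comparisons, and 0.0715% and 1.62% with the block. At an unadjusted limma p under 0.05 the counts of members were 1 and 0, beside 376 and 785 of the 12595 genes.

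Several members called for Mex3a status had narrow intervals for Lgr5 status: -0.14 to 0.08 for Cldn7, -0.16 to 0.14 for Cldn3, and -0.29 to 0.23 for Cldn4. Those of Cldn15 (-0.67 to 0.28), Gja1 (-0.29 to 0.69) and Gjb2 (-0.39 to 0.56) were wider. With the mouse as a block they were -0.45 to 0.05 for Cldn15, 0.03 to 0.37 for Gja1 and -0.17 to 0.34 for Gjb2. The blocked interval of Gja1 lay above 0, but its adjusted p was 0.262. For Ocln and Tjp1 the intervals were -0.22 to 0.23 and -0.25 to 0.32.

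Junction proteins outside these families were described from 3 lists. Of 31 adaptors and plaque proteins, which link junctions to the cytoskeleton, 28 were tested, with 4 higher and 4 lower in Mex3a+ cells (median difference -0.04), or 28.6% beside 27.2% of all genes; with the mouse as a block the counts were 4 and 10, or 50% beside 41.2%, and without MKL347 1 gene passed, without MKL367 2. Amotl1, an angiomotin family scaffold, was higher by 1.09 (SE 0.18, limma adjusted p = 0.00115), Mpdz, a tight junction scaffold, by 0.29, and Ctnnb1 (beta-catenin), which binds the tail of Cdh1, by 0.27. Cgn (cingulin) differed by -0.32, Ybx3, a factor that binds Tjp1, by -0.33 and Pkp2, a desmosomal plakophilin, by -0.47.

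Of 30 other junction membrane proteins 25 were tested, and 1 was higher and 9 lower, or 40% beside 27.2% of all genes, with a median difference of -0.11 (with the block 3 and 9, or 48% beside 41.2%); without MKL347 the count fell from 10 to 5. Cdhr2 and Cdhr5, protocadherins that link the tips of brush border microvilli, differed by -2.31 (SE 0.23, limma adjusted p = 6.7e-05) and -1.92 (SE 0.15, 1.71e-05), differences larger in size than those of the 37 tested members. Perp, a desmosomal membrane protein, differed by -0.91 and Igsf5 by -0.27. Ildr1, a protein of tricellular junctions and also among the 9 lower, differed by -0.94. Its mean over the 12 arrays, 4.33, lay under the filter level of 4.40. Through which arrays Ildr1 passed the filter was not examined, so its call is given as a description. The counts of this list include Ildr1 and were not made without it. The higher gene was Cxadr, a receptor at tight junctions, at 0.56 (SE 0.07, limma adjusted p = 0.000346). Of 8 transcription factors that repress Cdh1, 3 passed the filter (Snai3, Tcf3 and Twist2), and limma called 0 of these. At an unadjusted p under 0.05 the count was 1 of the 3, beside 4835 of the 12595 genes.

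The 22 members under the filter had mean signals over the 12 arrays of 2.88 to 4.18. A pair of the 22 was singled out after the values were seen, since their Mex3a+ and Mex3a- arrays did not overlap. Among all tested genes 13.3% did not overlap, and the share among all genes under the filter was not counted. Cldn8, a barrier-forming claudin of the distal colon, read 3.20, 3.27 and 3.19, then 3.25, 3.18 and 3.40 in Mex3a+ cells and 3.89, 3.42 and 3.43, then 4.31, 3.74 and 4.28 in Mex3a- cells. Cdh11, a mesenchymal cadherin, read 3.64, 3.35 and 3.68, then 3.51, 3.22 and 3.30 in Mex3a+ cells and 3.12, 3.09 and 3.01, then 2.94, 3.11 and 2.99 in Mex3a- cells. All 12 arrays of each lay under the filter level, so the measured differences of -0.60 and 0.41 are given as a description, with no test. The others under the filter differed by -0.07 (Cldn10) to 0.23 (Cldn18).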

How the data were processed

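Gene expression was measured on 12 Affymetrix mouse arrays. The deposited values are log2 signals made with RMA, per the submitters' processing notes; how RMA was run, and in which version, is not given in the sources used here. Per the labels, 25 ng of total RNA was amplified as whole transcriptome before labelling of 8 µg of cDNA. The signals were used as the authors deposited them. Array medians lay between 4.86 and 4.92, and the number of arrays limits the precision.

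Of 45141 probe sets, 28898 had 1 gene symbol in GEO's platform table, 551 several and 15588 none, and 104 were controls. Those with a single symbol were used, the brightest per gene (24 members had several probe sets, 96 in all). Genes above the 40th percentile of all values (4.40) on at least 3 arrays were kept, 12595 in all. limma 3.58.1 in R 4.3.3 fitted 1 mean per population with an intensity trend; tests were 2-sided with Benjamini-Hochberg adjustment over the 12595 genes, and called at an adjusted p under 0.05. Errors and 95% intervals are limma's. The main fit left out the mouse, so its errors and intervals include the spread between mice. Mouse numbers in the titles paired the arrays: after removal of population means, 18 same-mouse pairs correlated at 0.349 to 0.694 and 48 pairs from different mice at -0.691 to 0.152.

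Values on every array are given for members called in an average effect, with or without the block, for genes well known from intestinal junctions, and differences are given for up to 6 called genes of each list, those with the smallest p. The members and lists were chosen with earlier results of these data known. Promoters came from RefSeq (GRCm38.p6), handled with Python 3.11.15 and pandas 2.3.3; figures were drawn with matplotlib 3.10.9. The script was checked on simulated data. Marker lists with no count above were lymphocytes (0 of 7 called), enteric neurons and glia (1 lower of 5) and fibroblasts and smooth muscle (0 of 8 called; Acta2 higher with the mouse as a block).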

Additional observations from a re-analysis of the deposited data

Results flagged for a closer look

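Tjp3 was the single member of the 37 tested whose Lgr5 effect had opposite signs in Mex3a+ and Mex3a- cells of all 3 mice: 0.11 in Mex3a+ cells and -0.12 in Mex3a- cells, a difference of 0.23 on the log2 scale (SE 0.18). In Mex3a- cells of MKL367 the signals were nearly equal, 8.138 with Lgr5 and 8.145 without. The share of all genes with this sign pattern was not counted. The interaction did not pass in limma's test (unadjusted p = 0.223, and adjusted p = 0.613 with the mouse as a block).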

How the results depend on the processing

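Results were recomputed with the mouse as a block, without the filter or with it at the 60th percentile, after quantile normalization or median centring, over the mean of a gene's probe sets, without the intensity trend, with array weights, and without each mouse or array. The block together with leaving out a mouse, and every probe set on its own, were added after seeing the data. No called member changed sign in any of these. Cdh13, Cldn15, Cldn2 and Dsc2 kept their calls for the average Mex3a effect in all 26 alternatives. Leaving out mice or arrays gave 5 to 15 called members for that effect (13 with all arrays), 0 to 9 for the Mex3a effect in Lgr5+ cells (6), 0 to 8 in Lgr5- cells (7), 1 to 11 adaptors (8) and 5 to 11 other membrane proteins (10). With the mouse as a block the counts were 19 for the average Mex3a effect (6 higher, 13 lower, beside 41.2% of all genes), 12 in Lgr5+ cells, 17 in Lgr5- cells, 14 adaptors and 1 for the average Lgr5 effect; it changed no call of the main fit to not passing. With the block, leaving out MKL358 gave 12 in Lgr5+ cells, 14 in Lgr5- cells and 14 adaptors, leaving out MKL347 gave 11 in Lgr5- cells, and leaving out MKL367 gave 11 in Lgr5+ cells, 1 for the average Lgr5 effect and 1 for the Lgr5 effect in Mex3a- cells. Array weights gave 12 in Lgr5+ cells and 14 adaptors, and quantile normalization 4 in Lgr5- cells. Fewer arrays enter the fits that leave one out; the cause of the other changes was not tested. Quantile normalization moved the share of lower genes among all calls from 63.5% to 53.6%, with members at 4 higher and 8 lower, and the median of all genes from -0.01 to -0.00; median centring moved the share to 70.8%. With 3 mice and no detection calls, signals near 4.40 cannot be told from background.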
